A study of Mus musculus with 13 samples.

Results

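The genes that encode the main transcriptional regulators of cardiac fuel metabolism were followed across 13 mouse heart libraries: the fatty acid receptors Ppara, Ppard and Pparg, the estrogen-related receptors Esrra, Esrrb and Esrrg, the shared partner receptor Rxra, the coactivators Ppargc1a and Ppargc1b, and the nuclear respiratory factor gene Nrf1. They were chosen by name, as the rows of the deposited gene table whose Ensembl identifiers map to these symbols. All 10 were found among the 55471 genes of the table and all 10 passed the filter on low counts that left 15000 genes for testing.

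The libraries came from whole hearts of wild-type (WT) mice and of mice that carry R502W, an amino acid change in cardiac myosin-binding protein C, a thick-filament protein that holds back the myosin motor and is encoded by Mybpc3. There were 5 WT control libraries, 4 R502W control libraries and 4 libraries from R502W mice given mavacamten, a small-molecule inhibitor of cardiac myosin, at 2.5 mg/kg/day in the drinking water for 21 weeks. Gene-level counts carry no allele, so the genotype labels were not checked against sequence. All groups are whole heart tissue, so atria, fat and other attached tissue can be present. The mice are put at 24 weeks of age in the design text, whereas the extraction protocol names 3 and 18 weeks, and no age is attached to single libraries. Zygosity, strain and sex are not stated in the sources used here, and no treated WT group was analysed here. Library names differ from sample to sample, but nothing says that the samples are separate animals, so each p-value measures only the spread between these libraries. Total expected counts ran from 15350622 to 19361103 per library. Expression is given as CPM, the depth-normalised read count of edgeR after scaling for library composition, and differences as log2 fold changes ± SE with adjusted p-values (Benjamini-Hochberg over all 15000 genes) from edgeR's quasi-likelihood test on all 13 libraries. A gene was said to rise or fall where the adjusted p was below 0.05.

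The adult heart draws most of its energy from fatty acids, and the genes for their uptake and oxidation are controlled by nuclear receptors. PPARs bind fatty acids and their derivatives, pair with RXR on DNA and switch on lipid uptake and beta-oxidation genes. ERRs are orphan receptors that bind DNA without RXR and control mitochondrial energy genes. The PGC-1 coactivators bind both receptor families and also NRF1, which controls nuclear genes for the respiratory chain, so the coactivators tie fuel supply to mitochondrial capacity.

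One library and one technical measure touched many of the values below. The recombinase gene Rag1, made by immature lymphocytes, stood at 94.0 CPM in WT control 2, and the T cell receptor gene Trbc2 at 83.8 CPM. In the other 12 libraries they reached at most 1.63 and 1.15 CPM. Long and short transcripts were also out of balance between the groups. The median log2 deviation from the mean of all libraries, taken over the longest genes (at least 9738 exonic bases) minus the same over the shortest (at most 1624), was −0.84 in WT control 2 and between −0.25 and −0.07 in the other 4 WT libraries. It lay between 0.06 and 0.28 in all 8 R502W libraries. Across 14990 genes with a known length, the genotype fold change followed exonic length with a Spearman rho of 0.34, the treated against WT change with 0.36, and the treatment change with −0.02, given as descriptions since genes are not independent replicates. Calls on the regulators and counts over the lists were therefore recomputed without WT control 2 and after a per-library trend on exonic length was removed.

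**Figure D1:**
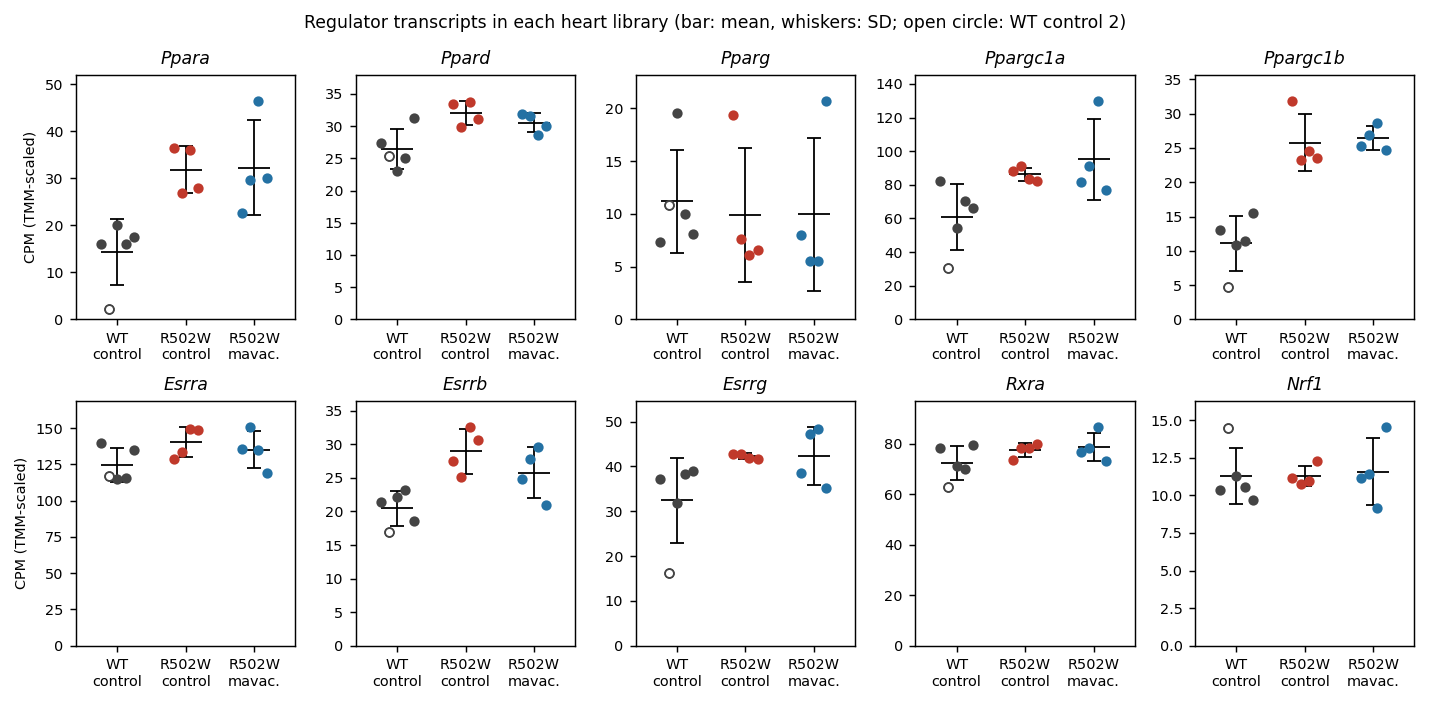
CPM of each regulator (y axes, from 0) in the 13 libraries, grouped on the x axis; bars are means, whiskers are SD over 5, 4 and 4 libraries, and the open circle is WT control 2. Ppargc1b shows 2 separate levels, 4.68 to 15.4 CPM in WT and 23.3 to 31.9 CPM over the 2 R502W groups, and Ppara sits at 2.10 CPM in WT control 2.

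In R502W control hearts 2 of the 10 regulators rose against WT, the coactivator gene Ppargc1b and the receptor gene Esrrb, and none fell. Among all genes tested, 12.4% changed in this comparison, with 8.63% higher and 3.75% lower. In 5 regulators, Ppara, Ppargc1a, Ppargc1b, Esrrb and Esrrg, the groups did not overlap, with every R502W control library above every WT library, as in 12.3% of all genes. The median log2 difference was 0.33 over the 10 regulators and −0.01 over all genes, and 9 of the 10 differences were positive. The regulator median was 0.20 without WT control 2, with 9 positive, and 0.23 with the length trend removed, with 8 positive. Over all genes the median was −0.03 in each of those fits. The WT libraries serve as control for both R502W groups and the R502W control libraries enter 2 comparisons, so the 3 comparisons are not independent.

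Before any comparison, the levels were ordered in WT hearts by CPM per kilobase of exonic sequence, which allows genes to be set roughly side by side. The length counts all annotated exons of a gene and not the transcript in use. The order includes WT control 2 and was not redone without it. Esrra had the highest level, 28.4 ± 2.69 (SD, n = 5), followed by Rxra at 13.3 ± 1.24 and Ppargc1a at 9.22 ± 2.96. Esrrg at 5.22 ± 1.54, Pparg at 3.78 ± 1.66, Ppara at 3.74 ± 1.84, Ppard at 3.52 ± 0.417 and Esrrb at 3.38 ± 0.431 came next, and Ppargc1b at 2.78 ± 1.00 and Nrf1 at 1.10 ± 0.182 were lowest. Only Esrra and Rxra, among neighbours in this order, had ranges that did not overlap.

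Promoter sequence was looked at, and is shown for Ppara, Ppargc1a and Esrrg. With Ppargc1b, these genes stood more than 2 times lower in WT control 2 than in the mean of the other WT libraries. Of all genes tested, 0.17% lay lower than Ppara by this log2 difference, 1.69% lower than Ppargc1b, 2.78% lower than Esrrg and 3.05% lower than Ppargc1a. The grouping rests on that 1 library, and any part of promoter elements in it was not tested. RefSeq promoter windows on GRCm38.p6, from 250 bases before to 50 bases after a transcript start, matched 9 of the 10 regulators with 17 promoters. The regulator without a window was Ppargc1b, so its promoter was not searched. These 3 stretches of 60 bases each end just before a transcript start and carry, in capitals, a nuclear respiratory factor 1 element, the CREB half-site on the opposite strand, and a MEF2 element:
Ppara, chr15:85735716-85735775, plus strand: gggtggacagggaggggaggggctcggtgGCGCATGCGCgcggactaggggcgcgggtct
Ppargc1a, chr5:51567726-51567785, minus strand: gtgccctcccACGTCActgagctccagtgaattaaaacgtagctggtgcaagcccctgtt
Esrrg, chr1:187608946-187609005, plus strand: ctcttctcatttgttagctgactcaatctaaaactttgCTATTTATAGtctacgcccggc

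Searched on both strands, the NRF1 element, a palindrome, occurred 31 to 22 bases before a Ppara start and in 0.971% of 32851 mouse promoters. That start lies inside the gene, downstream of its first annotated base at chr15:85734983. The CREB half-site TGACGT lay 50 to 45 bases before a Ppargc1a start and was in 7.51% of promoters. The MEF2 element lay 22 to 13 bases before an Esrrg start and was in 0.164% of promoters. A second Esrrg promoter held the D-box TTATGCAA, found in 0.743%. The half-site AGGTCA, part of longer receptor elements, was in promoters of Pparg and Rxra and in 16.3% of all. No regulator promoter in these windows held the ERR element TCAAGGTCA (0.423% of promoters), the PPAR and RXR direct repeat (AGGTCA, any base, AGGTCA; 0.0396%), which contains the half-site, or the E-box CACGTG (7.15%). A match is a string of letters and not a measured binding site.

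Ppara (ENSMUSG00000022383, chr15:85734983-85802819, plus strand) encodes the main fatty acid receptor of heart and liver. Its CPM in WT control 1 to 5 was 16.0, 2.10, 20.2, 15.9 and 17.5. In R502W control 1 to 4 it was 36.4, 27.0, 35.95 and 28.0, and in mavacamten libraries 1 to 4 it was 22.7, 29.7, 46.5 and 30.1. Every R502W library of both groups lay above every WT library. The genotype difference was 1.15 ± 0.40 (adjusted p = 0.075, edgeR) and missed the threshold, with a 95% interval of 0.29 to 2.01. Without WT control 2, where Ppara had 35 expected counts and stood 8.28 times below the mean of the other WT libraries, the difference was smaller but passed, at 0.84 ± 0.19 (adjusted p = 0.012, edgeR); 12.6% of genes passed in that fit. With the length trend also removed, on a Ppara length that counts 4032 further bases of its RefSeq model, it was 0.75 ± 0.18 (adjusted p = 0.021, edgeR). With all 13 libraries and the trend removed it was 1.15 ± 0.41 (adjusted p = 0.094, edgeR), or 1.02 (adjusted p = 0.11, edgeR) on that longer length. Neither passed.

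Ppard (ENSMUSG00000002250, chr17:28232700-28301474, plus strand) encodes the widely expressed PPAR of oxidative muscle. WT control 1 to 5 had 27.4, 25.4, 23.0, 25.1 and 31.3 CPM, R502W control 1 to 4 had 33.4, 29.8, 33.8 and 31.1, and the mavacamten libraries had 31.9, 31.6, 28.7 and 30.01. The groups overlapped through WT control 5. R502W control differed from WT by 0.28 ± 0.09 (adjusted p = 0.055, edgeR) and passed the threshold without WT control 5, at 0.34 (adjusted p = 0.017, edgeR). After removal of the length trend it was 0.13 (adjusted p = 0.38, edgeR).

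Pparg (ENSMUSG00000000440, chr6:115360951-115490399, plus strand) encodes the receptor that drives fat cell differentiation. It varied mostly within groups. WT control 1 to 5 had 7.33, 10.9, 19.6, 10.02 and 8.07 CPM, R502W control 1 to 4 had 19.4, 7.61, 6.13 and 6.58, and the mavacamten libraries had 7.99, 5.53, 5.52 and 20.7. One library in each group stood near 20 CPM. Between genotypes the difference was −0.18 ± 0.45 (adjusted p = 0.83, edgeR), with a 95% interval of −1.15 to 0.79, so that a difference of up to about that size was not detectable with this spread.

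The same 3 libraries were rich in fat transcripts. Adiponectin (Adipoq), a fat cell hormone, was at 99.3 CPM in WT control 3, 70.7 in R502W control 1 and 97.8 in mavacamten 4, and Ucp1, the heat-producing uncoupler of brown fat, was at 102, 96.3 and 138 CPM. WT control 2 had as much Adipoq, 99.5 CPM, but 1.92 CPM of Ucp1 and an intermediate Pparg level of 10.9 CPM. The summed level of the 11 fat markers ran from 82.6 to 1006 CPM in WT, 55.0 to 734 CPM in R502W control and 60.5 to 1037 CPM in treated libraries. None of the 11 was at 0 in every library of a group. Pparg RNA per fat cell and the amount of fat in a sample cannot be told apart in bulk tissue, and for each gene here fewer cells of a type and less RNA per cell cannot be told apart.

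**Figure D2:**
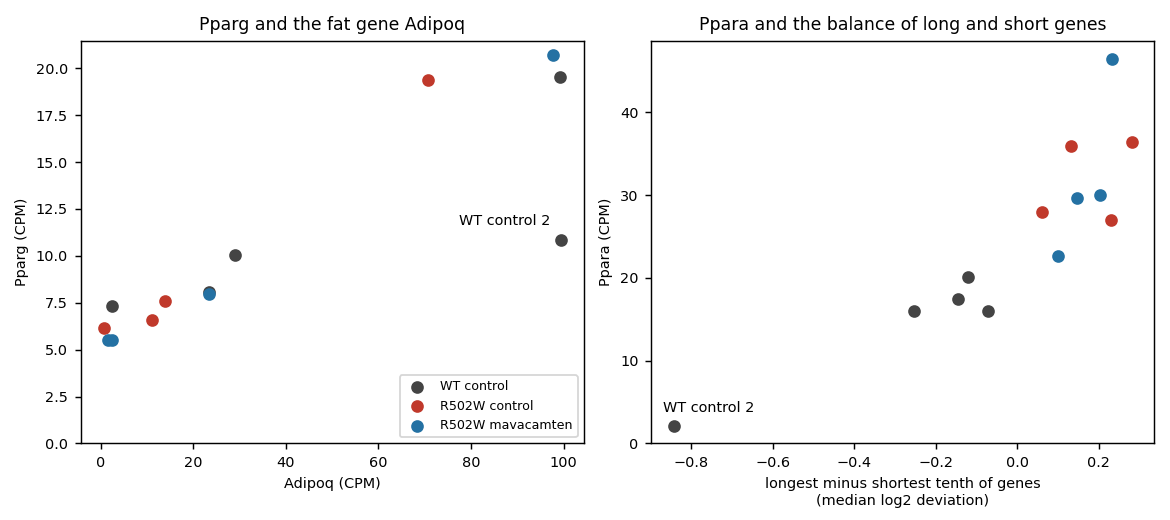
Left, Pparg (y, CPM) against Adipoq (x, CPM) in 13 libraries coloured by group, with the 3 highest Pparg values, 19.4 to 20.7 CPM, at 70.7 to 99.3 CPM of Adipoq. Right, Ppara (y, CPM) against the long minus short transcript balance (x, median log2 deviation), where WT control 2 lies alone at −0.84 and 2.10 CPM.

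The estrogen-related receptors differed among themselves. Esrra (ENSMUSG00000024955, chr19:6910977-6921813, minus strand), which encodes the best-known partner of PGC-1 in mitochondrial gene control, had 140, 117, 115, 116 and 135 CPM in WT control 1 to 5. R502W control 1 to 4 had 129, 134, 150 and 149 CPM and the mavacamten libraries 136, 151, 135 and 119. The groups overlapped and the genotype difference was 0.17 ± 0.09 (adjusted p = 0.22, edgeR), with a 95% interval of −0.02 to 0.37. Esrra shares 73 exonic bases, 1.66% of its length, with Trmt112 on the opposite strand.

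Esrrb (ENSMUSG00000021255, chr12:86361117-86521628, plus strand), known mainly from stem cells and the inner ear, was one of the 2 genes that rose. Its CPM was 21.5, 17.0, 22.2, 23.2 and 18.5 in WT control 1 to 5 and 27.5, 25.1, 32.6 and 30.6 in R502W control 1 to 4. In the mavacamten libraries it was 24.8, 27.8, 29.7 and 20.9. All R502W control libraries lay above all WT libraries, while mavacamten 4 lay within the WT range. The genotype difference was 0.50 ± 0.12 (adjusted p = 0.018, edgeR), a rise of 1.41-fold. The call was lost without R502W control 3, at 0.44 (adjusted p = 0.066, edgeR), and 12 of the 13 fits with 1 library left out kept it. It passed without WT control 2, at 0.41 (adjusted p = 0.038, edgeR), and with the length trend removed, at 0.42 (adjusted p = 0.036, edgeR), but not with both, at 0.37 (adjusted p = 0.064, edgeR). Without the 3 libraries lowest in the atrial gene Bmp10, named below, it was 0.53 (adjusted p = 0.075, edgeR). With a replicate block it was 0.46 (adjusted p = 0.063, edgeR).

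Esrrg (ENSMUSG00000026610, chr1:187608791-188214885, plus strand) encodes the receptor tied to the oxidative program of the postnatal heart. WT control 1 to 5 had 37.1, 16.1, 31.8, 38.2 and 38.9 CPM. R502W control libraries were tightly grouped at 42.9, 42.9, 42.0 and 41.6 CPM, above all WT values, and the mavacamten libraries had 38.4, 47.2, 48.4 and 35.3. With genotype Esrrg differed by 0.38 ± 0.20 (adjusted p = 0.21, edgeR) with all libraries and by 0.18 ± 0.10 (adjusted p = 0.26, edgeR) without WT control 2, which stood 2.26 times below the other WT mean.

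Rxra (ENSMUSG00000015846, chr2:27676440-27762957, plus strand), which encodes the common partner of the PPARs, ran from 62.9 to 79.7 CPM in WT with a median of 71.4. R502W control libraries spanned 73.6 to 80.1 CPM and treated libraries 73.2 to 86.7 CPM. The genotype difference was 0.10 ± 0.08 (adjusted p = 0.44, edgeR), with a 95% interval of −0.07 to 0.27. Nrf1 (ENSMUSG00000058440, chr6:30047988-30153458, plus strand) had 9.71 to 14.5 CPM in WT, 10.8 to 12.3 in R502W control and 9.14 to 14.5 in treated libraries. Its genotype difference was 0.00 ± 0.14 (adjusted p = 0.99, edgeR), with a 95% interval of −0.30 to 0.31. WT control 2, where 6 regulators had their lowest WT value, had the highest WT value of Nrf1.

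The clearest difference was in the coactivator gene Ppargc1b, while Ppargc1a, given below, did not pass. Ppargc1b (ENSMUSG00000033871), which encodes PGC-1 beta, had 12.98, 4.68, 10.9, 11.5 and 15.4 CPM in WT control 1 to 5. It had 31.9, 23.3, 24.5 and 23.5 CPM in R502W control 1 to 4 and 25.3, 26.9, 28.6 and 24.8 in the mavacamten libraries. The lowest R502W value, 23.3 CPM, lay well above the highest WT value, 15.4 CPM. The genotype difference was 1.22 ± 0.23 (adjusted p = 0.0053, edgeR), a rise of 2.33-fold, and all 13 fits with 1 library left out kept the call, between 0.99 and 1.37. Without WT control 2 it was 0.99 ± 0.12 (adjusted p = 0.00038, edgeR).

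Length bears on this gene, because the RefSeq model reaches 6691 bases past the 3′ end of the annotated exons used for length, and 4032 bases past it for Ppara. For every other regulator it reached at most 362 bases past that end. Ppargc1b and Ppara were also the regulators with the largest genotype differences. A trend on length does not restore reads that fall outside counted exons, and the part of the 3′ ends in these differences was not tested. With the length trend removed the Ppargc1b difference was 1.21 (adjusted p = 0.0071, edgeR), and with the RefSeq ends counted it was 1.00 (adjusted p = 0.0062, edgeR). In 3 libraries, WT control 3, R502W control 1 and mavacamten 3, the atrial gene Bmp10 was at 1.57 to 8.33 CPM, beside 307 to 672 CPM elsewhere. They are called atrium-poor here by Bmp10 alone. The 7 atrial markers together, Bmp10 among them, summed to 3666 to 8019 CPM in WT and 4101 to 7976 CPM in R502W control. In treated libraries the sum was 3006 to 6166 CPM. Without these 3 libraries the Ppargc1b call was lost, at 1.06 (adjusted p = 0.074, edgeR), and 404 genes passed in place of 1856.

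Ppargc1a (ENSMUSG00000029167, chr5:51454250-51567726, minus strand), which encodes PGC-1 alpha, the inducible family member, had 82.1, 30.7, 54.3, 70.4 and 66.2 CPM in WT control 1 to 5. R502W control 1 to 4 had 88.1, 91.1, 83.4 and 82.5 CPM and the mavacamten libraries 81.8, 91.5, 130 and 77.1. R502W control lay above WT, but by less than 1 CPM between WT control 1 and R502W control 4. The genotype difference was 0.51 ± 0.22 (adjusted p = 0.15, edgeR) and 0.31 ± 0.15 (adjusted p = 0.21, edgeR) without WT control 2.

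**Figure D3:**
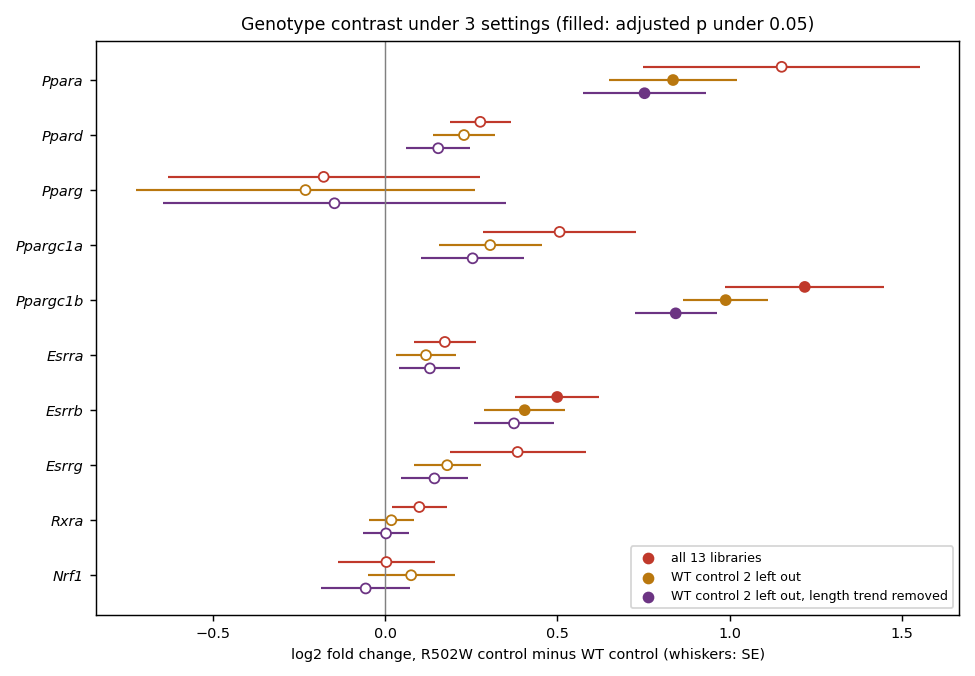
Genotype difference of each regulator (x, log2 fold change of R502W control minus WT control; whiskers are SE) with all 13 libraries, without WT control 2, and without it and with the length trend removed. Filled points have an adjusted p under 0.05: Ppargc1b in all 3 settings, Esrrb in the first 2 and Ppara in the last 2. The last setting counts the RefSeq ends of Ppara and Ppargc1b.

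Mavacamten was compared with no treatment within R502W hearts, which asks whether the drug moved these regulators in the mutant. None of the 10 changed, and 0% of all genes did so. Before adjustment, 525 genes (3.5% of those tested) but no regulator had a p under 0.05, and DESeq2 called 6 genes (0.04%), none of them a regulator. The median log2 difference was 0.02 over the regulators and 0.00 over all genes. No regulator had groups that did not overlap, against 2.87% of all genes.

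The intervals show what could have been missed. For Ppargc1b the treatment difference was 0.03 ± 0.24, with a 95% interval of −0.48 to 0.55, and for Ppara it was 0.02 ± 0.42, with −0.88 to 0.91. The interval for Ppargc1a, 0.14 ± 0.23, reached from −0.36 to 0.64, and that for Esrrb, −0.17 ± 0.13, from −0.44 to 0.11. Ppard (−0.07), Esrra (−0.06) and Rxra (0.02) had narrower intervals, of −0.27 to 0.13, −0.26 to 0.15 and −0.16 to 0.20. Pparg, at 0.02 ± 0.48, could have moved by more than 1 log2 unit in either direction. Treated libraries were more spread than untreated ones for Ppara (SD 10.1 against 5.03 CPM) and Ppargc1a (SD 24.0 against 4.05 CPM), with mavacamten 3 highest in both.

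Treated R502W hearts were also set against WT, which shows where the mutant stood after the drug. Ppargc1b was the 1 regulator of 10 that rose, by 1.25 ± 0.23 (adjusted p = 0.0092, edgeR), while 8.21% of all genes changed and 5.93% were higher. That rise passed without WT control 2, at 1.03 (adjusted p = 0.00067, edgeR), and with the length trend removed, at 1.25 (adjusted p = 0.012, edgeR). Without the 3 libraries low in Bmp10 it was 1.19 and did not pass (adjusted p = 0.088, edgeR). Ppargc1b and Ppara had all treated libraries above all WT libraries, as did 8.54% of genes. The Ppara difference was 1.17 ± 0.40 (adjusted p = 0.088, edgeR) and passed without WT control 2, at 0.85 ± 0.19 (adjusted p = 0.015, edgeR), where 8.15% of genes did. The Ppargc1a difference was 0.65 ± 0.22 (adjusted p = 0.087, edgeR), and DESeq2 called it at 0.62 (adjusted p = 0.046), with 12.3% of all genes called by that tool. For Esrrb it was 0.33 ± 0.12 (adjusted p = 0.11, edgeR), beside 0.50 in untreated R502W hearts.

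**Figure D4:**
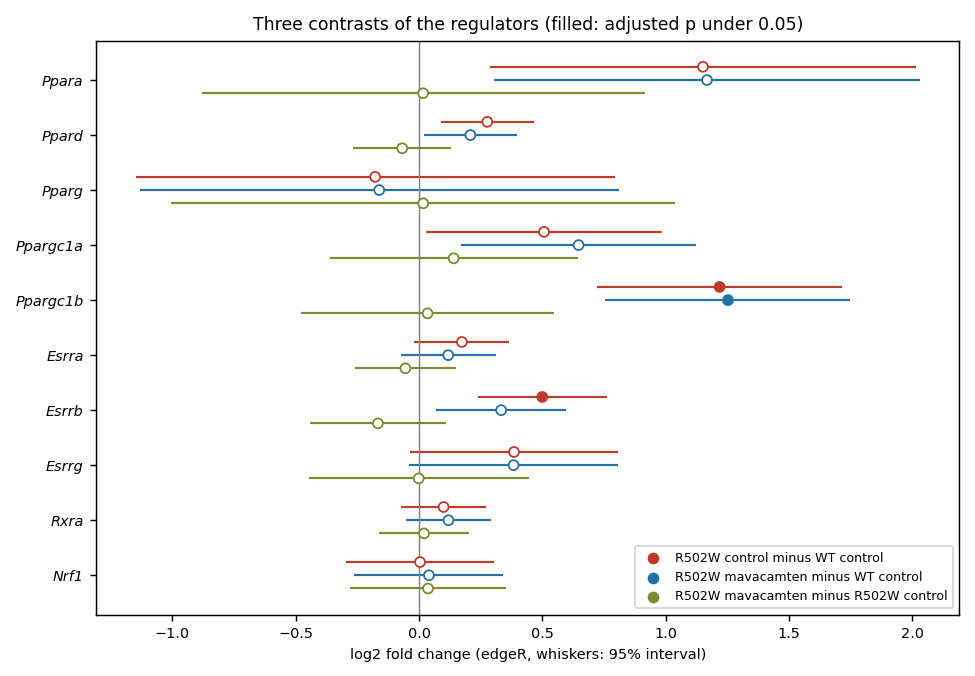
Log2 fold change with 95% interval (x) for the 10 regulators in the 3 comparisons; filled points have an adjusted p under 0.05. Ppargc1b is filled in both comparisons with WT, at 1.22 and 1.25, Esrrb in the genotype comparison alone, and no treatment interval excludes 0.

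Genes that these regulators are known to control were then read from lists by role. Among 38 tested PPAR target genes, 8 fell in R502W control hearts and none rose, with a median of −0.25. Of all genes tested, 3.75% fell and 8.63% rose. The count that fell was 9 without WT control 2, 7 with the length trend removed and 11 with DESeq2. Over all genes, 695 of 14877, 529 of 14990 and 1069 of 15000 fell in those fits. Those that rose numbered 1175, 779 and 1434, in that order. Slc27a1, a fatty acid transporter, fell by 0.59 on the log2 scale, from 222 ± 17.2 (SD, n = 5) to 147 ± 17.4 CPM (SD, n = 4; adjusted p = 0.0023, edgeR). The mitochondrial uncoupling protein gene Ucp2 and the acyl-CoA thioesterase gene Acot1 fell by 0.87 and 0.72. Others that fell, named after their values were seen, were Cpt1a and Cpt2 of the carnitine shuttle (−0.58 and −0.30), Ucp3 (−1.01) and the beta-oxidation gene Acaa2 (−0.60). With 1 library left out, Cpt2 lost its call in 7 of 13 fits, Ucp3 in 8 and Cpt1a in 3. With the length trend removed, Cpt2 (adjusted p = 0.20), Ucp3 (0.073) and Acaa2 (0.051) did not pass in edgeR. Ppara itself lay higher in every library of the same R502W control group. Pdk4 and Angptl4, classic PPAR targets outside the naming rule, were at −0.28 ± 0.40 and 0.26 ± 0.73 and did not pass.

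Treated hearts had 4 of 38 PPAR targets lower than WT and 0 higher, while 2.29% of all genes were lower. They included Ucp2 (−1.02), Acaa2 (−0.44) and Cyp4b1 (−0.49), and the list median was −0.14. Leaving out 1 library ended the call of Acaa2 in 10 of 13 fits and of Cyp4b1 in 12. The 4 became 3 without WT control 2 and 2 with the length trend removed, where neither Acaa2 nor Cyp4b1 passed. Over all genes, 416 of 14877 and 255 of 14990 were lower in those fits. Slc27a1 had 188 ± 18.995 CPM (SD, n = 4) in treated hearts, between the other groups, with a treatment difference of 0.35 ± 0.10 that did not pass (adjusted p = 1.00, edgeR). In the treatment comparison no PPAR target passed, 33 of 38 differences were positive, and the median was 0.11, beside 0.00 and 7626 of 15000 for all genes. The R502W control libraries enter both this and the genotype comparison, with opposite sign, so these signs are not independent of the lower genotype values. Genes of a list are not independent replicates either.

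The ERR and PGC-1 targets had 2 genes higher and 0 lower with genotype out of 40 tested, with a median of −0.12. Of all genes tested, 8.63% were higher and 3.75% lower, and the counts in the other fits are those given for the PPAR targets. DESeq2 called 2 higher and 7 lower, and edgeR called 1 higher and 0 lower both without WT control 2 and with the length trend removed. Vegfa, the angiogenic growth factor gene that PGC-1 alpha can switch on through ERR alpha, rose from 158 ± 27.2 (SD, n = 5) to 291 ± 20.7 CPM (SD, n = 4), by 0.88 ± 0.12 (adjusted p = 0.00068, edgeR), and in treated hearts it stood at 245 ± 18.3 CPM, 0.63 above WT (adjusted p = 0.0098, edgeR). Perm1, a muscle regulator induced by PGC-1 and ERR, rose by 0.47 ± 0.14 (adjusted p = 0.048, edgeR), a call lost in 10 of the 13 fits with 1 library left out. In the treatment comparison none passed, 36 of 40 differences were positive and the median was 0.07, with the same limits as for the PPAR targets.

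Among 24 tested NRF1 target and mitochondrial DNA genes, 3 fell and none rose with genotype, with a median of −0.06, while 3.75% of all genes fell. DESeq2 called 5 lower, and with the length trend removed 2 fell. Over all genes, 1069 of 15000 and 529 of 14990 fell in those fits. Uqcrh, a complex III subunit, fell by 0.55 and Cox6c, a complex IV subunit, by 0.52, and the import factor gene Tomm34 fell by 0.36. Tfam, the mitochondrial DNA packaging factor, was at −0.01 ± 0.09 (adjusted p = 0.93, edgeR). In treated hearts 2 of the 24 were lower than in WT, Uqcrh (−0.54) and Cox6c (−0.39), while 2.29% of all genes were lower. The Tomm34 call was lost in 6 of 13 fits with 1 library left out, and the treated Cox6c call in 9.

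Partners and coregulators of the receptors had 5 of 32 tested genes higher in R502W control hearts, 0 lower and a median of 0.18. Of all genes tested, 8.63% were higher and 3.75% lower. Med1, the Mediator subunit that nuclear receptors bind, rose by 0.63 ± 0.10 (adjusted p = 0.0021, edgeR), the coactivator gene Ncoa1 by 0.55, and the corepressor gene Ncor1 by 0.55. Lpin1, which encodes a PGC-1 alpha partner and lipid phosphatase, rose by 0.45, a call lost in 9 of 13 fits with 1 library left out, as were those of Ncor1 in 5 and Ncoa1 in 2. With the length trend removed, 3 of the 32 rose and the median was 0.07, and DESeq2 called 6 higher and 1 lower. Over all genes, 5.2% rose in the former fit, and DESeq2 called 1434 of 15000 higher and 1069 lower. The other receptor partners Rxrb (0.12 ± 0.10) and Rxrg (0.12 ± 0.14), and Pprc1 (−0.01 ± 0.12), the third PGC-1 family gene, did not pass.

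Among 35 tested upstream regulators of PGC-1 alpha, 5 rose and 1 fell with genotype, with a median of 0.04. Of all genes tested, 8.63% rose and 3.75% fell. The kinase genes Mtor, Gsk3b and Prkaa2 rose by 0.58, 0.64 and 0.59, Creb1 and its coactivator Crtc1 by 0.37 and 0.33, and Prkab1, an AMPK subunit gene, fell by 0.41. With the length trend removed 2 rose, Mtor and Gsk3b, and none fell, and DESeq2 called 5 higher and 4 lower. Over all genes, 5.2% rose with the length trend removed, and DESeq2 called 1434 of 15000 higher and 1069 lower. Once that trend was removed, Creb1 and Crtc1 were at 0.05 and 0.07 and did not pass (adjusted p = 0.73 and 0.55, edgeR). Single libraries ended the calls of Prkaa2 in 11 of 13 fits, Crtc1 in 10 and Prkab1 in 7. Of 21 tested genes for ligand supply and nuclear receptor lipids, Aldh1a1, a retinoic acid enzyme, fell by 1.24, and in treated hearts the retinol transporter gene Stra6 was lower than in WT, at −1.44. These calls were lost in 7 and 6 of 13 fits with 1 library left out, in that order. Stra6 was low, at a mean of 0.49 CPM in treated and 1.33 CPM in WT libraries. The Aldh1a1 genotype difference did not pass without WT control 2 (−1.19, adjusted p = 0.067, edgeR). Nor did it without the 4 fat-rich libraries (WT control 2 and 3, R502W control 1, mavacamten 4), at −0.50 (adjusted p = 0.27, edgeR).

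Of these lists, which were chosen with earlier results of these data known, the clock genes had the largest share called. Among 19 clock genes, 4 rose and 12 fell in R502W control hearts, with a median of −0.48. The counts were the same against WT in treated hearts. Of all genes tested, 12.4% were called with genotype and 8.21% in treated hearts against WT. Dbp, a clock output factor, fell by 2.18 and Per2 by 1.65 on the log2 scale, while the repressor gene Nfil3 rose by 1.88. Dbp and Nfil3 bind the same D-box elements with opposite effects. The collection time of the hearts was not given, and the part of the clock genes in the regulator differences was not tested.

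**Figure D5:**
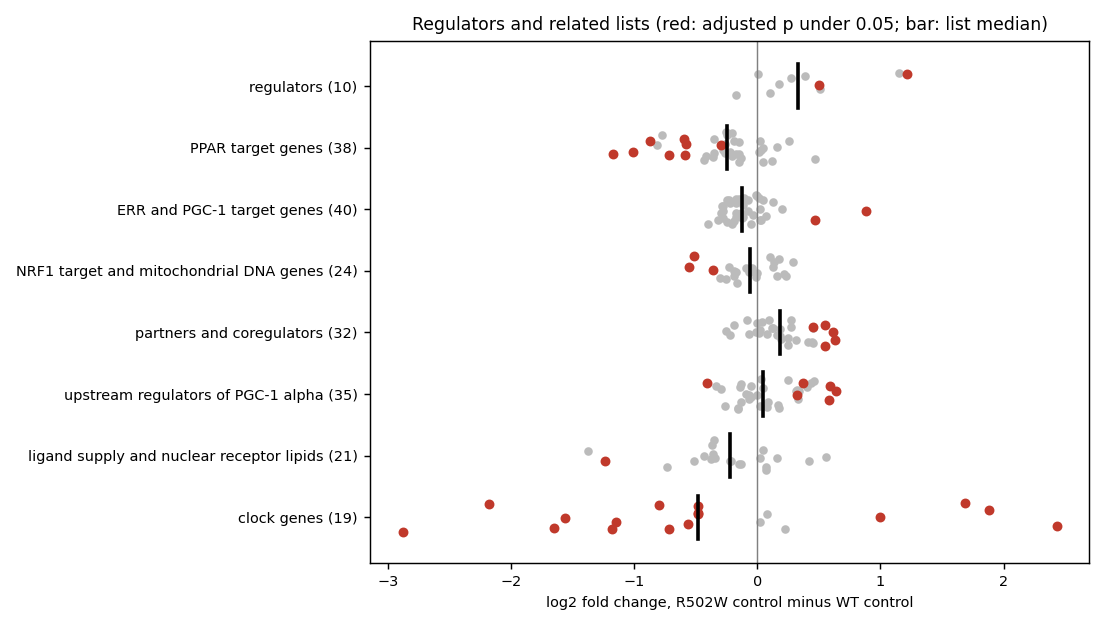
Genotype log2 fold changes (x) of the regulators and 7 related lists, each point 1 gene, red with an adjusted p under 0.05 and black bars at list medians; the vertical scatter is arbitrary. Red points of the PPAR targets lie left of 0 and those of the partners right of 0, with medians of −0.25 and 0.18.

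Cell type markers moved in part with genotype. The summed level of 10 cardiomyocyte markers spanned 51503 to 72932 CPM in WT, 70453 to 80921 CPM among R502W control and 65406 to 90131 CPM among treated libraries. The 8 endothelial markers summed to 684 to 925 CPM in WT and 1063 to 1264 CPM in R502W control, without overlap, and to 824 to 1180 CPM in treated libraries. The endothelial genes Kdr, Cldn5 and Vwf rose with genotype, 3 of 8, but the Vwf call was lost in 8 of 13 fits with 1 library left out and with the length trend removed, at 0.16 (adjusted p = 0.43, edgeR). Airway epithelium markers summed to at most 566 CPM in WT, 1.45 CPM in R502W control and 141 CPM in treated libraries. None of the cardiomyocyte or endothelial markers was at 0 in every library of a group. Their part in the rise of Ppargc1b and Esrrb was not tested.

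Similar patterns were sought by Pearson's r of log2 CPM over the 13 libraries, with a mean minimum of 5 CPM. The genes most like Ppara were 4930402H24Rik (0.99), Qser1 (0.99) and Vps13c (0.98). Most like Ppargc1b were Otud7b (0.99), Ppm1b (0.99) and Jmy (0.98), and most like Ppargc1a were Nebl, Qk and Cacna2d1 (0.98 each). Esrrg was nearest to Vldlr, the lipoprotein receptor gene (0.99, and 0.97 without WT control 2), then Nt5c1a (0.99) and Gm38077 (0.98). Pparg was nearest to Cib2 (0.97), Ifi27 (0.97) and 4931406C07Rik (0.97). For Esrrb these were Mavs (0.94), Tfrc (0.92) and Katnal1 (0.92), for Esrra Dynll2, Pgap2 and Arap3 (0.94, 0.93 and 0.93), and for Ppard Afg3l1, Cdk5rap2 and Kremen1 (0.92, 0.91 and 0.89). Rxra was nearest to Aldh5a1, Tbc1d16 and Stard8 (0.93, 0.93 and 0.92) and Nrf1 to H2-T22, Polb and Fxyd5 (0.89, 0.89 and 0.87).

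Among the regulators themselves, Ppargc1a and Esrrg had an r of 0.94 over 13 libraries and 0.86 over the 12 without WT control 2. Ppara and Ppargc1b had 0.92 and 0.86, while Ppara and Esrrg fell from 0.94 to 0.65 without that library. Pparg was negatively related to Esrra, at −0.76 and −0.78. These are descriptions over libraries that share genotype, length balance and fat content.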

How the data were processed

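RNA from 13 mouse heart libraries was poly(A)-selected and sequenced with a strand-specific protocol, per the labels' protocols. The authors deposited 1 table of RSEM expected counts per gene on GRCm38; cutadapt, FastQC and DESeq2 are also named per the submitters' processing notes, while versions, aligner and strand setting are not given in the sources used here. Of the values, 5.76% were fractional, and expected counts were rounded.

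Genes were kept by filterByExpr (minimum count 10, minimum total 15), scaled by TMM and tested with edgeR 4.0.16 (R 4.3.3) in 1 fit over 3 groups, with 3 contrasts. The biological coefficient of variation was 0.232. The length trend was a lowess curve per library (span 0.3) on GENCODE M21 exonic length, on GRCm38. The fit that also left out WT control 2 counted the RefSeq ends of Ppara and Ppargc1b in their lengths. Other choices tried were RLE scaling, DESeq2 1.42.0, no filter, 2-group fits, a replicate block, and leaving out single libraries, 4 fat-rich or 3 atrium-poor libraries. The script was tested on simulated data.

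The regulators and gene lists were chosen with earlier results of these data known. Named genes were all 10 regulators, up to 4 genes per list by smallest adjusted p in the genotype comparison and 2 in each other, markers beside a result, and the 3 most similar patterns per regulator. A few genes that this rule names are not reported here. Symbols matched 55144 of 55471 identifiers. The 22 within-group pairs of libraries differed by 7.60 to 109.8 times counting noise (chi-square per degree of freedom), so none was a duplicate.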

Additional observations from a re-analysis of the deposited data

Results flagged for a closer look

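The 30 sets of values, 10 regulators in 3 groups, were searched for a library far from the rest of its group, and 5 were found; chance gives about 1 in 20. Ppara in WT control 2 was at 2.10 CPM, beside 15.9 to 20.2 CPM in the other 4 WT libraries. Pparg was at 19.6 CPM in WT control 3, beside 7.33 to 10.9 CPM, at 19.4 CPM in R502W control 1, beside 6.13 to 7.61 CPM, and at 20.7 CPM in mavacamten 4, beside 5.52 to 7.99 CPM. Ppargc1b was at 31.9 CPM in R502W control 1, beside 23.3 to 24.5 CPM. WT control 2 was also the library with 94.0 CPM of Rag1 and the lowest balance of long against short transcripts, and the 3 Pparg libraries held 70.7 to 99.3 CPM of Adipoq; the part of these in the values was not tested.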

How the results depend on the processing

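The count of genes called in the genotype comparison, 1856, was 963 with a replicate block, 1145 without 4 fat-rich libraries (WT control 2 and 3, R502W control 1, mavacamten 4), 404 without the 3 atrium-poor ones and 866 to 1870 with single libraries left out. Against WT, treated hearts had 1232, which became 740 with no filter, 349 with the block, 632 with the length trend removed, 216 in a 2-group fit, 653 without fat-rich and 86 without atrium-poor libraries, and 359 to 1213 with single libraries left out. In the treatment comparison DESeq2 called 6. The 2 regulators called with genotype became 0 without atrium-poor libraries and 1 to 3 with single libraries left out; the 1 called in treated hearts against WT became 0 without atrium-poor libraries, 2 without fat-rich ones, 2 with DESeq2 and 1 to 2 with single libraries left out. The 2 added length settings were chosen after seeing the data, and both counted the RefSeq ends. With all libraries this gave 631 genes in treated hearts against WT. Without WT control 2 it gave 621 genes and 2 regulators.

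Replicate numbers did not pair the libraries: deviations of same-numbered libraries correlated between −0.323 and 0.253. With the replicate block, Esrrb was at 0.46 (adjusted p = 0.063, edgeR) and Ppard at 0.35 (adjusted p = 0.044, edgeR) in the genotype comparison. Ppara passed without fat-rich libraries, at 0.85 with genotype and 0.97 in treated hearts against WT.

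Signs changed only for differences near 0 that passed no test, and the cause was not tested. Nrf1 in the genotype comparison was −0.0196 with RLE, −0.0147 with no filter, −0.0423 with the block, −0.2484 with the length trend removed, −0.2487 with RefSeq ends, −0.0564 with WT control 2 also out, −0.0151 without atrium-poor libraries and −0.0199 with DESeq2. In treated hearts against WT it was −0.0176 (block), −0.2076 (length), −0.2079 (RefSeq ends) and −0.0144 (length, WT control 2 out), and Pparg was 0.3259 without atrium-poor libraries. In the treatment comparison Esrrg was 0.0018 with no filter, 0.0027 with the block, 0.0038 with length removed by either model, 0.0035 with WT control 2 also out, 0.0083 in a 2-group fit and 0.0793 without fat-rich libraries. Without atrium-poor libraries Ppara was −0.1272, Ppargc1a −0.0231 and Rxra −0.0400; without fat-rich ones Pparg was −0.0885 and Nrf1 −0.1011, and Pparg was −0.0530 with the block.

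With single libraries left out, the ranges that crossed 0 in the treatment comparison were Ppara from −0.1980 to 0.1526, Pparg from −0.6322 to 0.5610, Ppargc1a from −0.0341 to 0.2268, Ppargc1b from −0.0112 to 0.1521, Esrrg from −0.0588 to 0.0750, Rxra from −0.0155 to 0.0518, Nrf1 from −0.0954 to 0.1463. In the genotype comparison they were Pparg from −0.7191 to 0.1203, Nrf1 from −0.0456 to 0.0756, and in treated hearts against WT Pparg from −0.8478 to 0.1362, Nrf1 from −0.1237 to 0.1224.

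Of 390 regulator differences with 1 library left out, 352 kept their direction and their side of the threshold, 1 lost and 3 gained a call. Of 300 under the other settings 263 did so, 5 lost and 6 gained a call. With 4 or 5 libraries a group and a biological coefficient of variation of 0.232, differences within the printed intervals could not be resolved. Age, collection time, length balance and attached tissue were not controlled, and genotype cannot be told apart from any of them that varied with it.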
